A study of Homo sapiens with 6 samples.

Results

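CHFR, the gene of the E3 ubiquitin ligase named for its forkhead-associated and RING finger domains, was taken as 1 gene out of 60483 in the count table. It was found by its Ensembl identifier, ENSG00000072609, and it was chosen by its higher level in HELLS KO cells, so that its rise is described here and carries no test. RNA-seq of total RNA compared the human line HAP1 (C631), labelled as wild type and as chronic myelogenous leukemia, with a HELLS KO derivative of it, with 3 libraries of each genotype. Both genotypes were kept under normal growth with no agent added, and replicate 3 of each carries a batch label that replicates 1 and 2 do not. HAP1 cells are near-haploid, a state in which most genes are present in a single copy. The paper states that they tend to become diploid in long culture, and the ploidy of the sequenced cells was not analysed here. The HELLS KO line was obtained as a knockout with an insertion of 1 base in exon 3 of HELLS, and it is a single line set against a single parental line, so the effect of HELLS and a difference of the clone cannot be told apart. The total counts were between 13641237 and 14859360 in replicates 1 and 2 and were 24126357 in HAP1 replicate 3 and 24400187 in HELLS KO replicate 3.

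CHFR acts early in mitosis. When microtubules are disturbed, it delays the condensation of chromosomes and the entry into metaphase, and it attaches ubiquitin to mitotic kinases such as PLK1 and AURKA. Its forkhead-associated domain binds phosphorylated proteins, its RING finger recruits ubiquitin-conjugating enzymes, and a zinc finger near its end binds poly(ADP-ribose). The CHFR promoter lies in a CpG island that is often methylated and silent in tumours. HELLS is a SNF2-family chromatin remodeler linked to DNA methylation, to an extent that differs between cell types. The study also assayed the total 5-methylcytosine of these lines. The paper reports that it was not changed by loss of HELLS in HAP1 cells. That assay is not analysed here, and methylation at the CHFR promoter was not analysed here.

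In the GENCODE release 44 annotation of GRCh38, CHFR lies on chromosome 12 from 132822187 to 132956304 on the − strand, near the end of the long arm. The annotation gives it 24 transcripts, of which 9 are coding. The canonical transcript has 18 exons with 11228 exonic bases and encodes 652 codons. On the − strand the CHFR interval begins at 132956304, but its canonical transcript begins further downstream, at 132887605. This transcript and a divergent one begin at either end of a CpG-rich stretch. For this reason the 250 bases before the canonical start are shown. They are the RefSeq sequence of GRCh38.p14, chr12:132887606-132887855, read on the − strand from 5′ to 3′, with each CpG in capitals.
CHFR promoter: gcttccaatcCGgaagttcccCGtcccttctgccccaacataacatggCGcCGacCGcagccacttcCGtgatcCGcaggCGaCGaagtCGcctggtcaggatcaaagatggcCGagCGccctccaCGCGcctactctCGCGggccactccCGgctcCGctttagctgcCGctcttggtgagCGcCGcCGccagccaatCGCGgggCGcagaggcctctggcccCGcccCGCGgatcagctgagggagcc

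The window holds 28 CpG and has a GC content of 68.8%, with an observed to expected CpG ratio of 0.972. It has more CpG than 84.1% of 35116 RefSeq promoters cut to the same length, whose median was 11 CpG and a GC content of 58.0%. CHFR-DT, a divergent long non-coding RNA of 2 exons, starts on the + strand, with 236 bases between its start and the canonical CHFR start. The window covers its first 14 bases. Motifs were searched on both strands after the sequence was seen. The letters CCAAT occurred 2 times, at positions −246 and −56 from the start, and 32.0% of the promoters hold them. CCGGAAGT occurred 1 time at position −241 and is held by 3.42% of the promoters. GGGCGG occurred 1 time, on the other strand at position −27, and is held by 42.6%. These matches describe letters and do not show that a factor binds there.

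CHFR was low in every HAP1 library and about an order of magnitude higher in every HELLS KO library. The HAP1 libraries held 68, 71 and 107 counts of CHFR in replicates 1 to 3, and the HELLS KO libraries held 732, 704 and 1473. In CPM, the counts scaled to library size with TMM factors, the HAP1 libraries were at 4.78, 5.17 and 4.46, and the HELLS KO libraries at 50.3, 49.3 and 60.5. The lowest HELLS KO library was far above the highest HAP1 library, and the groups did not overlap. The groups also did not overlap in 10.1% of all tested genes, and CHFR was chosen by its higher level in HELLS KO. The mean was 4.80 ± 0.353 CPM in HAP1 and 53.4 ± 6.20 CPM in HELLS KO (SD, n = 3 each). Counting error alone is 9.67% to 12.1% of the CHFR value in a HAP1 library and 2.61% to 3.77% in a HELLS KO library.

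**Figure D1:**
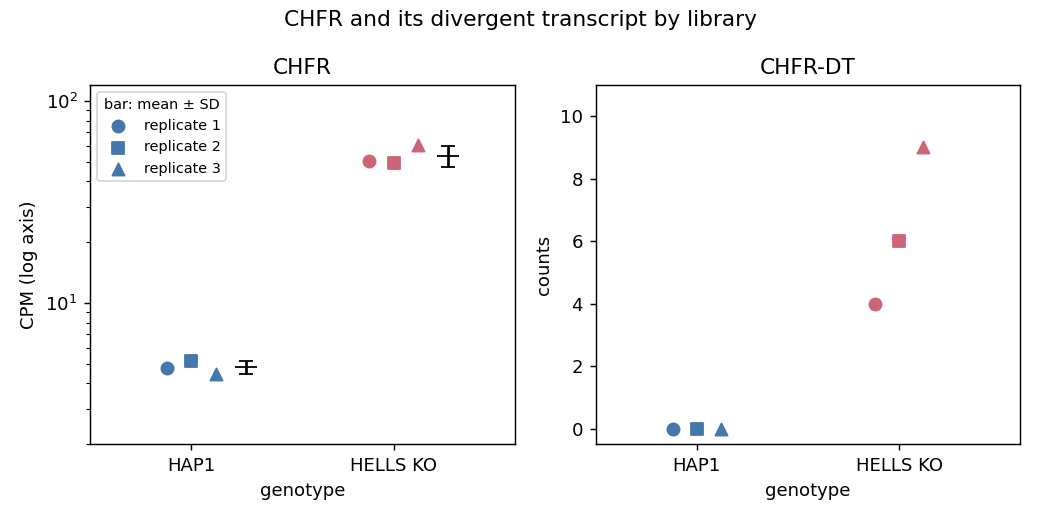
CPM of CHFR on a log axis (left, with the mean ± SD as a bar) and counts of CHFR-DT (right) in the 3 HAP1 and 3 HELLS KO libraries, with a marker for each replicate number. CHFR sits between 4.46 and 5.17 CPM in HAP1 and between 49.3 and 60.5 CPM in HELLS KO, and CHFR-DT has counts in HELLS KO libraries and none in HAP1 libraries.

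Between libraries of the same replicate number, CHFR was 10.5-fold higher in HELLS KO for replicate 1, 9.54-fold for replicate 2 and 13.6-fold for replicate 3. The corresponding log2 ratios were 3.40, 3.25 and 3.76, with a mean of 3.47 ± 0.262 (SD, n = 3). The fit across all tested genes gave a log2 fold change of 3.48, and the standard error worked out from it was 0.17. The pair with the batch label, replicate 3, gave the highest of the 3 folds, and the unlabelled pairs gave 10.5-fold and 9.54-fold on their own. On log2(FPKM + 1), a scale that shrinks the change of a low gene, the difference was 1.67.

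CHFR-DT was named after its values were seen, because it shares the promoter window. Each HAP1 library had 0 counts of it, and the HELLS KO libraries had 4, 6 and 9, or 0.275, 0.420 and 0.370 CPM. Against a floor of 3 counts over the 3 HAP1 libraries pooled, or 0.0576 CPM, its pooled level of 0.356 CPM in HELLS KO was at least 6.18-fold higher, for counting error only. It did not pass the filter on low counts and was not tested. Of the other genes inside the CHFR interval that were too low to be tested, ENSG00000278949, on the strand of CHFR, had 0, 0 and 1 counts in the HAP1 libraries against 14, 0 and 17 in HELLS KO, so that HELLS KO replicate 2 had none. The pseudogene ENSG00000255703 had 2, 0 and 0 against 2, 2 and 0 counts, the long non-coding RNA ENSG00000250790 had 0, 3 and 0 against 0, 0 and 4, and RNU6-327P had 0 in all libraries. In the HELLS KO libraries together, CHFR had 153 times the counts of CHFR-DT.

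The level of CHFR moved from the lower end of the measured genes to the middle. In FPKM, which divides by gene length, CHFR was at 0.277, 0.299 and 0.255 in HAP1 and at 2.89, 2.80 and 3.49 in HELLS KO. The means were 0.277 ± 0.0220 and 3.06 ± 0.374 FPKM (SD, n = 3 each). Of the 24956 genes in the FPKM table, 21.3%, 22.2% and 19.5% were below CHFR in the HAP1 libraries, and 51.2%, 50.7% and 52.8% in the HELLS KO libraries. Its rank from the top was 19643, 19407 and 20101 in HAP1 and 12182, 12291 and 11788 in HELLS KO. The median gene of a library had between 2.62 and 2.84 FPKM, so in HELLS KO CHFR was close to the median and not among the high genes. The table holds deduplicated reads, and its highest gene reached between 688 and 924 CPM in a library.

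**Figure D2:**
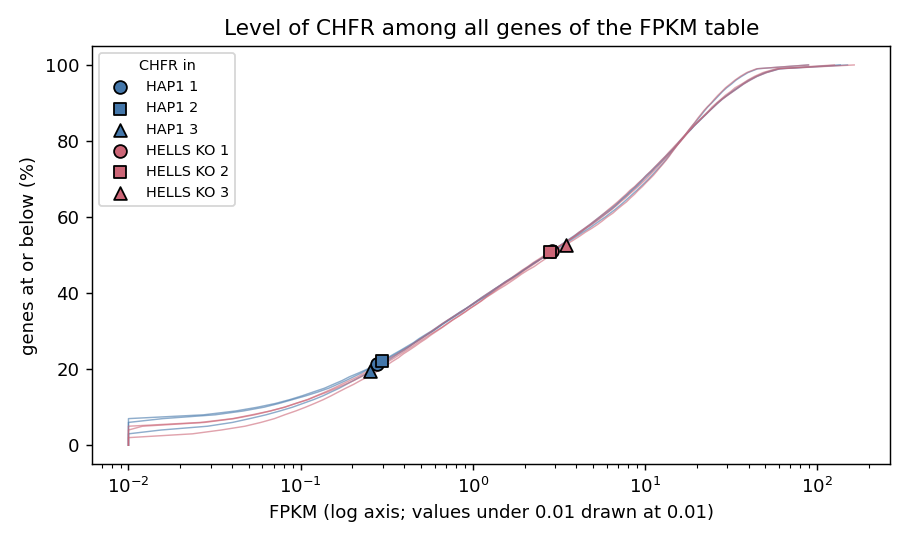
Share of genes (%) at or below each FPKM (log axis) in the 6 libraries as lines, blue for HAP1 and red for HELLS KO, with CHFR marked in each library. CHFR lies above 19.5% to 22.2% of the genes in HAP1 and above 50.7% to 52.8% in HELLS KO.

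The call rule for a gene was an adjusted p under 0.05 in edgeR's quasi-likelihood test and a log2 fold change of 1 or more in size. Of 17925 tested genes 2.22% were called, 1.50% (269 genes) higher in HELLS KO and 0.720% (129 genes) lower. An unadjusted p under 0.05 was found for 6.59% of them, and DESeq2 called 3.16%. CHFR is among the 269, as its choice fixed. By the size of the fitted log2 fold change it ranked 224 of all tested genes and 209 of the 269, since many of these genes were near 0 in HAP1. Of the 269, 97 had 0 counts in all HAP1 libraries and 152 had at most 3 counts in each. CHFR had at least 68 counts in every HAP1 library, and 17 of the 269, CHFR included, had a lowest HAP1 count at or above that. By its mean in HELLS KO, CHFR ranked 19 of the 269 in CPM and 87 of the 269 in FPKM. The length implied by its FPKM was 17127 bases, more than the 11228 exonic bases of the canonical transcript. The lengths of the genes above it were not compared, and the part of length in this change of rank was not tested.

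ZNF578, a zinc-finger gene, ranked just above CHFR at a log2 fold change of 3.50. Its counts were 1, 0 and 6 in HAP1 and 10, 16 and 63 in HELLS KO, and with a standard error of 0.87 it was not called (edgeR adjusted p = 0.14), although the fit with the replicate number as a block gave an edgeR adjusted p of 0.0099 and DESeq2 0.011. CHRM3, which encodes a muscarinic acetylcholine receptor, ranked just below at 3.40 with a standard error of 0.50 (edgeR adjusted p = 0.014), a call lost without replicate 1 of HAP1 (0.070) and without replicate 1 (0.059) or 2 (0.078) of HELLS KO. The standard error of CHFR, 0.17, comes from the values by which it was chosen and is given as a description.

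The targeted gene itself, HELLS, was present in both genotypes, at 1444, 1488 and 3671 counts in HAP1 against 1410, 1375 and 2802 in HELLS KO. The means were 121 ± 28.0 and 103 ± 10.7 CPM (SD, n = 3 each), with a log2 fold change of −0.24 (SE 0.18, edgeR adjusted p = 1.0). The groups overlapped in CPM, so HELLS RNA did not separate the genotypes, and gene counts do not show an inserted base. Of 12 haematopoietic marker genes, SPI1 and HBG1 had 0 counts in every library and PTPRC, MPO and ITGAM at most 2, whereas TAL1, a blood transcription factor, was at 16.2 FPKM in HAP1 and 13.8 FPKM in HELLS KO. Of the 12, 9 were too low to be tested, and of the 3 tested, TAL1, LMO2 and CD33, edgeR called 0, with 0 at an unadjusted p under 0.05 and 0 by DESeq2. The shares of 2.22% and 6.59% give 0.0666 and 0.198 of 3 genes, so these zeros say nothing of the markers. LMO2, a partner of TAL1, had the largest log2 fold change of them, 0.69 (SE 0.37), from 8, 12 and 14 counts in HAP1 against 16, 14 and 28. The libraries of the genotypes did not overlap in CPM for LMO2, higher in HELLS KO, and for TAL1, lower in HELLS KO, against 10.1% of all tested genes, and they overlapped for CD33. The part of these markers in the CHFR values was not tested.

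The genes around CHFR show the RNA level of the chromosome segment in which it lies. Their log2 fold changes were smaller than that of CHFR, and their count of calls is near the background. DNA copy number was not analysed here, and its part in the rise of CHFR was not tested. Of 78 genes annotated within 1 Mb, measured between the lower-coordinate ends, 75 are in the count table and 27 were tested. Of the 27, edgeR called 0, 0 had an unadjusted p under 0.05, and DESeq2 called 0. The shares over all tested genes, 2.22% and 6.59%, would give 0.599 and 1.78 of 27 genes, so these zeros alone say little about the neighbours. In 0 of the 27 did the libraries of the genotypes not overlap, against 10.1% of all tested genes. The median log2 fold change of the 27 was 0.08, against 0.01 over 940 tested genes of chromosome 12 and 0.01 over all tested genes. The other 48 genes in the table had too few counts to be tested.

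GOLGA3, which encodes a Golgi protein and overlaps the end of CHFR on the same strand, is the nearest protein-coding gene. The HAP1 libraries held 2288, 2157 and 4470 counts of it and the HELLS KO libraries 2475, 2771 and 4731, and its log2 fold change was 0.15 (SE 0.12). The pseudogene RPS11P5, inside the CHFR interval on the other strand, was at 0.18. ANKLE2, a nuclear envelope gene, was at 0.10, the mitochondrial phosphatase gene PGAM5 at −0.01 and the peroxisomal membrane gene PXMP2 at 0.06. POLE, the catalytic subunit of a replicative DNA polymerase, was at 0.02, and the unnamed gene ENSG00000280287 at −0.36. Over the 12 protein-coding neighbours outside the zinc-finger genes, the log2 fold changes ran from −0.22 to 0.15 with a median of 0.01. CHFR stood at 3.48 within the same segment.

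Beyond CHFR towards the chromosome end lies a run of zinc-finger genes, which encode DNA-binding proteins. All 7 tested were above 0, and edgeR called 0, DESeq2 called 0 and 0 had an unadjusted p under 0.05, near the 0.155 and 0.461 genes that 2.22% and 6.59% give. ZNF605, whose annotated interval overlaps that of CHFR on the same strand, had 361, 325 and 1301 counts in the HAP1 libraries against 402, 603 and 1387 in HELLS KO. This is a log2 fold change of 0.29 with a standard error of 0.38, and the groups overlapped. ZNF26 was at 0.25, ZNF84 at 0.23, ZNF140 at 0.14 and ZNF891 at 0.23, and beyond 300 kb ZNF10 was at 0.30 and ZNF268 at 0.22. The last 2 fall outside the rule for named genes and were added after their values were seen, to complete the run. The median of the 7 was 0.23, but by replicate number it was 0.14, 0.47 and 0.07, the highest for replicate 2, and without HELLS KO replicate 3 ZNF140 and ZNF891 fell below 0, at −0.03 and −0.09. Without HAP1 replicate 3, ZNF605 was at 0.79 and ZNF891 at 0.71, and with any 1 library left out ZNF605 ran from 0.01 to 0.79. The median over the other 20 neighbours was 0.01, from −0.36 to 0.73.

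CpG content was also counted in the promoters of the neighbours, as a description. A RefSeq promoter was found for 10 of the 12 other protein-coding neighbours, and 9 of the 10 had at least the 28 CpG of CHFR, with a range of 25 to 51 and a median of 37. Of the 7 zinc-finger promoters, 3 had at least as many, with a range of 13 to 40 and a median of 25.

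Reads could be assigned uncertainly where genes overlap. In release 44, 8 other genes lie at least in part within the CHFR interval, and of these GOLGA3 and ZNF605 are protein-coding genes on its own strand. Of the 31-base stretches of CHFR transcripts, 6.469% also occur in transcripts of other genes. The annotation release used for the counting was not given in the sources used here, and gene counts do not show which CHFR exons the reads came from. The kit was directional, but the strand setting of the counting was not given either.

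The substrates of CHFR were each above it in FPKM, and their fitted log2 fold changes were small. Of 7 tested, 0 were called by edgeR, 0 had an unadjusted p under 0.05 and DESeq2 called 0, with a median log2 fold change of −0.02 against 0.01 for all tested genes. At the shares over all tested genes, 2.22% called and 6.59% at an unadjusted p under 0.05, 0.155 and 0.461 of 7 genes would be reached, so a count of 0 is near the background. PLK1, the kinase that drives mitotic entry, had 2644, 2600 and 3156 counts in the HAP1 libraries against 2696, 2602 and 3198 in the HELLS KO libraries, which is −0.02 as a log2 fold change. AURKA, a kinase of centrosomes and spindle poles, had 2183, 2177 and 3387 against 2256, 2231 and 3337 counts, also −0.02. Both were lower in CPM in replicate 3 than in replicates 1 and 2 of either genotype. The chromosome-bound kinesin KIF22 was at −0.01, the mitotic kinase PBK at 0.00, the helicase-like factor HLTF at −0.13, PARP1, which makes poly(ADP-ribose), at −0.05, and the histone deacetylase HDAC1 at 0.04. By length, PLK1 was at 35.0 FPKM in HAP1 and 34.3 in HELLS KO, and CHFR at 0.277 and 3.06. These FPKM values depend on the length taken for each gene. In CPM, which does not divide by length, the means in HELLS KO were closer. They were 53.4 for CHFR, 92.2 for PBK, the lowest substrate, and 166 for PLK1. The RNA of the ligase thus stayed below that of PLK1 in FPKM in both genotypes, and protein was not analysed here.

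The partners of CHFR had a median log2 fold change of 0.01, with the values of all 10 between −0.03 and 0.11. Of them 0 were called by edgeR, 0 by DESeq2 and 0 reached an unadjusted p under 0.05, where the background of 2.22% and 6.59% gives 0.222 and 0.659 genes. Among ubiquitin-conjugating enzymes, UBE2D1 was at 0.05, UBE2D2 at −0.03, UBE2D3 at 0.01, UBE2N at 0.00, UBE2V1 at 0.06 and UBE2V2 at 0.05. The deubiquitylating enzyme USP7 was at −0.03. MAD2L1, a component of the spindle checkpoint, was at 0.01, the importin KPNA2 at −0.03, and TPT1, a microtubule-associated protein gene, had the largest value, 0.11.

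Genes that share the forkhead-associated domain or the poly(ADP-ribose)-binding zinc finger with CHFR had log2 fold changes from −0.30 to 0.17 with a median of 0.04. Of 8 tested, edgeR called 0, with 0 at an unadjusted p under 0.05 and 0 by DESeq2, near the 0.178 and 0.527 genes that 2.22% and 6.59% give. RNF8, another ligase with both a forkhead-associated domain and a RING finger, was at 0.04. APLF, which has both a forkhead-associated domain and such zinc fingers, was at −0.30 with 52, 63 and 99 counts in the HAP1 libraries against 41, 44 and 100 in HELLS KO. DCLRE1A, a repair nuclease, was at 0.07, the checkpoint kinase CHEK2 at 0.08, MDC1, a scaffold at DNA breaks, at 0.00, and NBN, a break sensor, at 0.17. The strand-end processing enzyme APTX was at −0.01. In FPKM, CHFR in HAP1 was below the lowest of these genes, APLF at 0.570. In HELLS KO CHFR at 3.06 lay between APLF at 0.460 and MDC1 at 9.05.

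Wider lists of mitotic and replication genes held 0 genes called by edgeR and 0 by DESeq2, where 2.22% of tested genes were called, which is under 1 gene for a list of their size. Of 19 mitotic entry genes the largest change was that of ARPP19, an inhibitor of a mitotic phosphatase, at 0.08. Of 18 spindle checkpoint genes it was that of KNL1, a kinetochore scaffold, at 0.28, and of 22 S phase genes that of GINS3, a subunit of the replicative helicase complex, at 0.24. In none of these 3 lists did a gene have an unadjusted p under 0.05, where 6.59% gives 1.25, 1.19 and 1.45 genes. Of 12 genes of poly(ADP-ribose) turnover, MACROD2, a hydrolase of ADP-ribose on proteins, had counts of 4, 0 and 6 in the HAP1 libraries against 12, 12 and 18 in HELLS KO. This is a log2 fold change of 2.06 (SE 0.70). It was the 1 gene of the list with an unadjusted p under 0.05, and it was not called (edgeR adjusted p = 0.43). The background of 6.59% and 2.22% gives 0.791 and 0.266 of 12 genes, close to these counts. Of 17 DNA methylation genes, edgeR and DESeq2 called 0 and 0 had an unadjusted p under 0.05, where 2.22% and 6.59% give 0.377 and 1.12, and the largest was ZBTB38, a methyl-CpG-binding protein gene, at 0.27.

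CHFR belongs to the genes whose promoters are known to be methylated in cancers, and calls among the others of that kind were few and went both ways. Of the 38 others with a row of counts, 30 were tested, and edgeR called 2 of them, 1 higher and 1 lower, with a median log2 fold change of −0.11. That is 6.67% of the 30, against 2.22% of all tested genes, and 6 of the 30 had an unadjusted p under 0.05, where 6.59% gives 1.98. No test of this difference was made, and 2 genes are few. GATA4, a transcription factor of heart and endoderm, had 12, 20 and 20 counts in the HAP1 libraries against 677, 717 and 1262 in HELLS KO. It rose by a log2 fold change of 5.59 (edgeR adjusted p = 1.9e-04). SFRP1, a secreted antagonist of Wnt signalling, had 637, 501 and 920 counts in the HAP1 libraries against 168, 204 and 456 in HELLS KO. This is a log2 fold change of −1.42 (SE 0.21, edgeR adjusted p = 0.016), and the call was lost without replicate 1 of HAP1 (edgeR adjusted p = 0.073) and without replicate 1 (0.058) or 2 (0.12) of HELLS KO. In a fit that blocks on the replicate number, which pairs the libraries, 4 genes of the list were called, against 3.51% of all tested genes in that fit. The added genes, named after their values were seen, were TFPI2, a protease inhibitor, at 2.07 (edgeR adjusted p = 0.067 without and 0.0014 with the block) and PYCARD, an inflammasome adaptor, at −1.15 (0.64 and 0.039). Over all 10 lists, 2 of 141 tested genes were called, or 1.42% against 2.22% of all tested genes.

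The genes whose profile over the 6 libraries lay closest to that of CHFR were sought among 13222 protein-coding genes with a mean of at least 1 CPM, by the root mean square distance of centred log2 CPM. ZNF69, a zinc-finger gene on chromosome 19, was closest at 0.256, with counts of 7, 8 and 16 in HAP1 and 83, 67 and 156 in HELLS KO. TRO, which encodes the adhesion protein trophinin, was at 0.338, with 79, 51 and 149 against 536, 612 and 1415 counts. DHRS2, a dehydrogenase gene on chromosome 14, was at 0.338, with 93, 101 and 303 against 1337, 1195 and 2522 counts. ZNF568, a further zinc-finger gene on chromosome 19, followed at 0.359, and PINLYP, also on chromosome 19, at 0.404. The sixth gene was at 0.448 and the median candidate at 1.74. None of these 5 lies on chromosome 12. With 6 libraries in 2 groups, any gene with a like rise is close by this measure, and 59 candidates had a Pearson correlation above 0.99 with CHFR across the libraries, as a description.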

How the data were processed

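RNA from HAP1 and HELLS KO cells was sequenced by the authors as read pairs from a directional kit, aligned with STAR 2.7.3a to GRCh38, stripped of duplicated reads and of low mapping quality, and counted per gene with featureCounts 2.0.6. Raw counts were deposited. The FPKM values deposited by the authors cover 24956 genes and were made with DESeq2 1.44.0 per the submitters' processing notes. Removing duplicates can lower the counts of densely covered genes. CHFR had at most 0.086 counts per base.

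The quasi-likelihood test of edgeR 4.0.16 (R 4.3.3) was fitted to genes kept by filterByExpr, with TMM factors and Benjamini-Hochberg adjustment, and DESeq2 1.42.0 as an alternative, after the steps were tested on simulated data. CPM was computed from the counts. A standard error is the size of the log2 fold change divided by the square root of the F statistic of edgeR's test. The floor for a gene with a count of 0 was 3 counts over the libraries of a genotype. Of the identifiers, 56321 matched GENCODE release 44. Deviations of same-numbered libraries correlated at 0.42, 0.20 and 0.78, and a batch label marks replicate 3 of both, so the numbers were treated as pairs in the fit with the block. Both crossed pairs of replicates 1 and 2 were above the 0.20 of replicate 2, at 0.59 (replicate 2 of HAP1 with replicate 1 of HELLS KO) and 0.33, so the pairing of these numbers is unclear. The replicates are stated to be biological. Replicates of a genotype were no copies, with a chi-square per gene of at least 2.28.

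CHFR and the lists were chosen with earlier results of these data known. Named genes were CHFR, HELLS, the members of the 3 lists of substrates, partners and domain relatives, tested genes within 300 kb, called genes within 1 Mb, in other lists the called genes or else the largest change, the rank neighbours, and the 5 closest profiles. Exceptions are given where they stand. Some list members are not reported here by name. Alternatives were other scalings, DESeq2, other filters, the block, each library left out, replicates 1 and 2 only, FPKM with pseudocounts of 1 and 0.1, and windows of 500 kb and 2 Mb. Protein sequences were not used here.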

Additional observations from a re-analysis of the deposited data

How the results depend on the processing

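CHFR kept its direction under every alternative run, with a log2 fold change of 3.30 to 3.53 over the 13 count-based settings (3.48 with the replicate block), and of 1.67 on log2(FPKM + 1) and 3.06 on log2(FPKM + 0.1), scales on which a pseudocount takes part of a low gene's change. No neighbour within 1 Mb was called under any of 15 alternatives. The median of the zinc-finger neighbours was between 0.069 and 0.53 with 1 library left out, the highest without HAP1 replicate 3. That of the other neighbours was −0.0034 with upper-quartile factors, −0.020 with replicates 1 and 2 only, 0.037 within 500 kb and −0.044 to 0.097 with 1 library left out, so its sign is not settled. Genes called higher numbered 424 with DESeq2, which also tested genes that the edgeR filter removed, 415 with no filter, 29 with at least 10 counts in every library, a filter that removes genes near 0 in HAP1, 363 with the replicate block and 112 to 273 with 1 library left out, the lowest without HELLS KO replicate 2. Genes called lower numbered 243, 200 and 48 under the first 3 of these, 267 with the replicate block, 219 with replicates 1 and 2 only and 40 to 176 with 1 library left out. Of the genes of the lists, 1 was called with at least 10 counts in every library, where SFRP1 had an edgeR adjusted p of 0.054, 4 with the replicate block and 1 to 3 with 1 library left out. TFPI2 was also called by DESeq2, with no filter and with replicates 1 and 2 only. The replicate block also called ZNF578 and changed no other call among the genes named. The cause of these changes was not tested beyond what the settings remove. The 3 libraries a genotype and the 68 to 107 CHFR counts in HAP1 limit the precision of the fold.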
